A study of Homo sapiens with 4 samples.

Results

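Described here are 10 genes that encode the enzymes making serine, carrying its one-carbon unit through folate, and making asparagine: PHGDH, PSAT1, PSPH, SHMT1, SHMT2, MTHFD1, MTHFD1L, MTHFD2, ALDH1L2 and ASNS. They were chosen by name, with earlier results of these data known, and all 10 were found among the 20263 Ensembl gene IDs of the count table. RNA had been sequenced from MDA-MB-231, an established human line of triple-negative breast cancer. The tested cells received RB-1, called a ribociclib derivative in the series title, for 24 h, and the control cells received the solvent DMSO, with 2 libraries in each group. Both groups are the same line in the same medium with serum and antibiotics, no dose of RB-1 is given in the labels, and ribociclib is known as an inhibitor of CDK4 and CDK6. Whether the 2 libraries of a treatment stem from independent cultures is not stated. Every p-value therefore reflects only how far these samples vary, possibly for technical reasons.

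Serine is made from an intermediate of glycolysis in a short chain of reactions: PHGDH oxidises it, PSAT1 adds an amino group taken from glutamate, and PSPH removes the phosphate. Serine hydroxymethyltransferases (SHMT1 in the cytosol, SHMT2 in mitochondria) then pass a carbon unit from serine to tetrahydrofolate and leave glycine. In mitochondria MTHFD2 oxidises that unit further, after which MTHFD1L releases it as formate or ALDH1L2 oxidises it to carbon dioxide. In the cytosol MTHFD1 uses formate to rebuild the folates needed for purines and thymidylate. ASNS makes asparagine from aspartate and glutamine. Many of these genes are textbook targets of ATF4, the transcription factor of the integrated stress response, which cells raise when amino acids are scarce.

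Library totals ran from 34122874 to 37754168 counts, and 13612 genes had enough counts to be tested, all 10 enzymes among them. In DMSO replicate 2 the mitochondrial gene MT-CO1 took 5.02% of all counts, against 1.21% to 2.24% in the other libraries. Expression is given as CPM, counts scaled to a common library size with TMM factors. The 6 mesenchymal markers of the line (VIM, CD44, AXL, CAV1, MSN and ZEB1) were all present, with sums of 10146 to 10333 CPM in RB-1 libraries and 8860 to 10466 in DMSO libraries. VIM, MSN and AXL carried most of that sum, while ZEB1 (log2 fold change -2.18, edgeR adjusted p = 0.000704) and CAV1 (-0.90, 0.0134) were lower after RB-1. Of 8 luminal and epithelial markers, 4 reached 1 CPM in every library, and CDH1 and ESR1 stayed below 1 CPM throughout. FOXA1 (-3.48), GATA3 (-2.54) and PGR (-1.91) were lower after RB-1, while KRT19 (0.56), EPCAM (0.48) and ERBB2 (-0.27) did not pass. The sum of the 8 was 378 to 456 CPM in RB-1 libraries and 293 to 383 CPM in DMSO libraries, most of it from KRT19. Of 5 immune markers CD68 alone reached 1 CPM in every library, at 219.5 and 200.7 CPM in RB-1 libraries and 159.7 and 339.9 CPM in DMSO libraries, and of 6 fibroblast and endothelial markers COL1A1 alone did, at 5.06 and 4.73 CPM in RB-1 libraries and 7.48 and 8.09 CPM in DMSO libraries. CD3E and DCN, markers of T cells and fibroblasts, had 0 counts in every library. The part of these markers in the enzymes' results was not tested.

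The promoters are shown for the genes that the results turn on and for which RefSeq (GRCh38.p14) gave one, which was the case for 7 of the 10 genes. Each was searched on both strands, from 250 bases before the annotated start to 50 after it, for TGATGNAA, the core of the element bound by ATF4 with its C/EBP partners, and for CACGTG, the E-box. TGATGNAA occurred in 3.62% of all 35116 promoter windows and in at least 1 window of 4.46% of 27305 genes, and CACGTG in 7.26% of windows and 8.77% of genes. Capitals mark these letters below. ASNS, PSAT1 and MTHFD2 are shown because their transcripts rose, MTHFD1 as the cytosolic counterpart, and MTHFD1L by the 30 bases around its match. The first 4 are the 160 bases just before the start, written 5′ to 3′ along the gene.
ASNS (chr7:97872409-97872568, minus strand): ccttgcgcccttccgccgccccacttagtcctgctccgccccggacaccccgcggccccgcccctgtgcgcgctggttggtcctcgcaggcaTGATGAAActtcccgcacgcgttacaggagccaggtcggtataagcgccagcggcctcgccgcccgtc
PSAT1 (chr9:78296965-78297124, plus strand): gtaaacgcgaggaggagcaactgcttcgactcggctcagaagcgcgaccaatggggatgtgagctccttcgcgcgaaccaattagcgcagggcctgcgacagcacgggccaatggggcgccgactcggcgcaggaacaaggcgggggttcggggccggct
MTHFD2 (chr2:74198455-74198614, plus strand): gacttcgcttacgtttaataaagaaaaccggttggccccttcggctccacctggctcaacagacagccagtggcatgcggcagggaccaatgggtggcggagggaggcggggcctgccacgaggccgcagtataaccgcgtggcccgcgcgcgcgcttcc
MTHFD1 (chr14:64388193-64388352, plus strand): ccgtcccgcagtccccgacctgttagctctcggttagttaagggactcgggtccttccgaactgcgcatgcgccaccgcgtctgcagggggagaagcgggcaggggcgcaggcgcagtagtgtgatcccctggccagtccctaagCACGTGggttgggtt
MTHFD1L (chr6:150866346-150866375, plus strand): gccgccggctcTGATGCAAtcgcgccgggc
TGATGNAA was found in 2 of the 7 genes, at base -68 before the first start of ASNS and, in MTHFD1L, at base -129, -90 or 25 from 3 of its 4 annotated starts, which share these bases. CACGTG was found in MTHFD1 at base -15 and in MTHFD1L. PHGDH, PSAT1, SHMT1 and MTHFD2 held neither run of letters in the window searched. A match is a description of the letters, and no binding was measured.

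After RB-1, 4 of the 10 transcripts rose, PSAT1, ASNS, PSPH and MTHFD2, and 1 fell, the sparse ALDH1L2, while 5 did not pass. Each gene was tested by edgeR's two-sided quasi-likelihood F test, adjusted over all 13612 genes by Benjamini-Hochberg, and called at an adjusted p under 0.05. By the same rule 12.8% of all tested genes were higher and 16.1% were lower, 28.8% in all; with library totals as the only scaling the calls were 2059 higher and 1400 lower, against 1737 and 2189 here. The median log2 fold change was 0.63 for the 10 genes and 0.01 for all tested genes. In bulk RNA, fewer cells of a type and less RNA per cell cannot be told apart. In 7 of the 10 genes both RB-1 libraries lay above both DMSO libraries and in the other 3 both lay below, so no member overlapped between the groups. Over all tested genes 35.3% lay above and 34.3% below in this way.

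**Figure D1:**
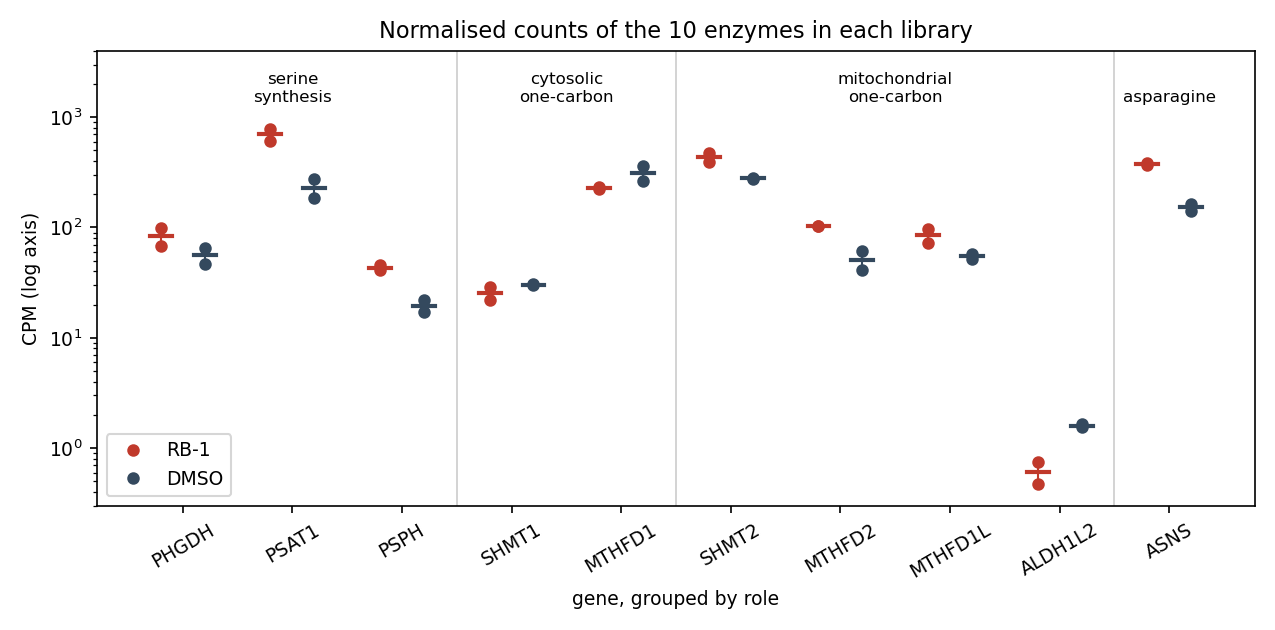
Normalised counts (CPM, log axis) of the 10 enzymes in each library, with RB-1 in red to the left of DMSO in dark blue; points are libraries, and the short bar is the mean of the 2. PSAT1 in RB-1 libraries is the highest, at 613 and 785 CPM, and ALDH1L2 lies below 2 CPM in every library.

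Within the serine chain the middle enzyme had the largest difference. PSAT1 (ENSG00000135069), the phosphoserine aminotransferase, had 785 and 613 CPM in RB-1 libraries, against 276 and 184 CPM in DMSO libraries. The lower RB-1 library was more than the sum of both DMSO libraries. Its mean was 699 ± 122 CPM in RB-1 and 230 ± 64.4 CPM in DMSO (SD, n = 2 each), a 3.04-fold rise (log2 fold change 1.60 ± 0.27 SE, edgeR adjusted p = 0.00248). PSPH (ENSG00000146733), the phosphatase of the last step, had 45.9 and 40.8 CPM in RB-1 libraries, against 21.9 and 17.0 CPM in DMSO libraries. It was 2.23-fold higher (1.16 ± 0.29, edgeR adjusted p = 0.0145). For PSPH the 2 libraries differed 1.13-fold in RB-1 and 1.29-fold in DMSO. Its call was lost without DMSO replicate 1 (log2 fold change 1.35) and without DMSO replicate 2 (1.01). PHGDH (ENSG00000092621), the dehydrogenase that opens the chain, had 99.8 and 68.0 CPM in RB-1 libraries, against 65.1 and 46.5 CPM in DMSO libraries. The lower RB-1 library and the higher DMSO library nearly met, and the difference did not pass (0.59 ± 0.29, edgeR adjusted p = 0.155).

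ASNS (ENSG00000070669), asparagine synthetase, had 386 and 366 CPM in RB-1 libraries, against 164 and 142 CPM in DMSO libraries. The groups were far apart relative to the gap between their own libraries. The transcript was 2.46-fold higher (1.30 ± 0.23, edgeR adjusted p = 0.00329). PSAT1 and ASNS were the members that passed whichever library was left out: PSAT1 then ranged from 1.36 to 1.92 and ASNS from 1.22 to 1.40. In the GENCODE annotation 79.7% of the exon bases of ASNS are also assigned to AC079781.5, a gene on the same strand that was not analysed here, so some of these reads may belong to it.

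Of the mitochondrial one-carbon enzymes, MTHFD2 rose. MTHFD2 (ENSG00000065911), the dehydrogenase and cyclohydrolase that follows SHMT2, had 103.4 CPM in both RB-1 libraries, against 61.3 and 40.8 CPM in DMSO libraries. It was 2.02-fold higher (1.02 ± 0.28, edgeR adjusted p = 0.0206). The DMSO libraries lay far apart, and the call was lost without DMSO replicate 2 (0.77, edgeR adjusted p = 0.191), as it was without RB-1 replicate 1 (1.03, 0.0639). About 29.7% of its exon bases overlap SLC4A5 on the opposite strand, which had 0 to 14 counts in any library.

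SHMT2 (ENSG00000182199), which feeds serine into mitochondrial folate, had 475 and 391 CPM in RB-1 libraries, against 281 and 277 CPM in DMSO libraries. The groups did not overlap, but the difference did not pass (0.64 ± 0.23, edgeR adjusted p = 0.0573). It passed with upper-quartile factors (0.74, 0.0329), with library totals alone (0.83, 0.0299) and without RB-1 replicate 2 (0.77, 0.0449). MTHFD1L (ENSG00000120254), the ligase that releases formate from mitochondrial folate, had 97.5 and 72.7 CPM in RB-1 libraries, against 57.9 and 51.8 CPM in DMSO libraries. It did not pass either (0.63 ± 0.27, edgeR adjusted p = 0.0968), and passed without RB-1 replicate 2 (0.83, 0.0433). In the annotation 14.1% of the SHMT2 exon bases overlap AC137834.2 on the opposite strand, and that gene was not analysed here.

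ALDH1L2 (ENSG00000136010), the mitochondrial dehydrogenase that burns the formyl unit to carbon dioxide, was the scarcest member. It had 18 and 28 counts in RB-1 libraries, against 54 and 54 counts in DMSO libraries, or 0.477 and 0.748 CPM against 1.55 and 1.65 CPM. The transcript fell by 1.38 on the log2 scale (± 0.47 SE, edgeR adjusted p = 0.0486). Of the alternatives in normalization, filter, tool, offsets and libraries, RLE factors alone kept that call. With offsets for length and GC content it was -0.72 (edgeR adjusted p = 0.211), and with a library left out it ranged from -1.73 to -1.09 (0.0549 to 0.209).

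Both cytosolic enzymes lay below 0, as ALDH1L2 did, and neither cytosolic enzyme passed. MTHFD1 (ENSG00000100714), which joins formate to folate and interconverts the folate forms, had 225 and 231 CPM in RB-1 libraries, against 358 and 265 CPM in DMSO libraries. The spread was almost all between the DMSO libraries (-0.45 ± 0.24, edgeR adjusted p = 0.178). SHMT1 (ENSG00000176974) had 28.7 and 21.9 CPM in RB-1 libraries, against 30.4 and 30.1 CPM in DMSO libraries (-0.26 ± 0.29, edgeR adjusted p = 0.527). Here the spread lay in the RB-1 libraries. SHMT1 shares 6.95% of exon bases with SMCR8 on the opposite strand. SMCR8 had 2831 and 3421 counts in RB-1 libraries, against 4139 and 4931 counts in DMSO libraries. MTHFD1 shares 2.58% with ZBTB25, also on the opposite strand, at 958 and 1408 counts against 538 and 442. The part of these overlaps in the values of SHMT1 and MTHFD1, or in ratios to them, was not tested.

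**Figure D2:**
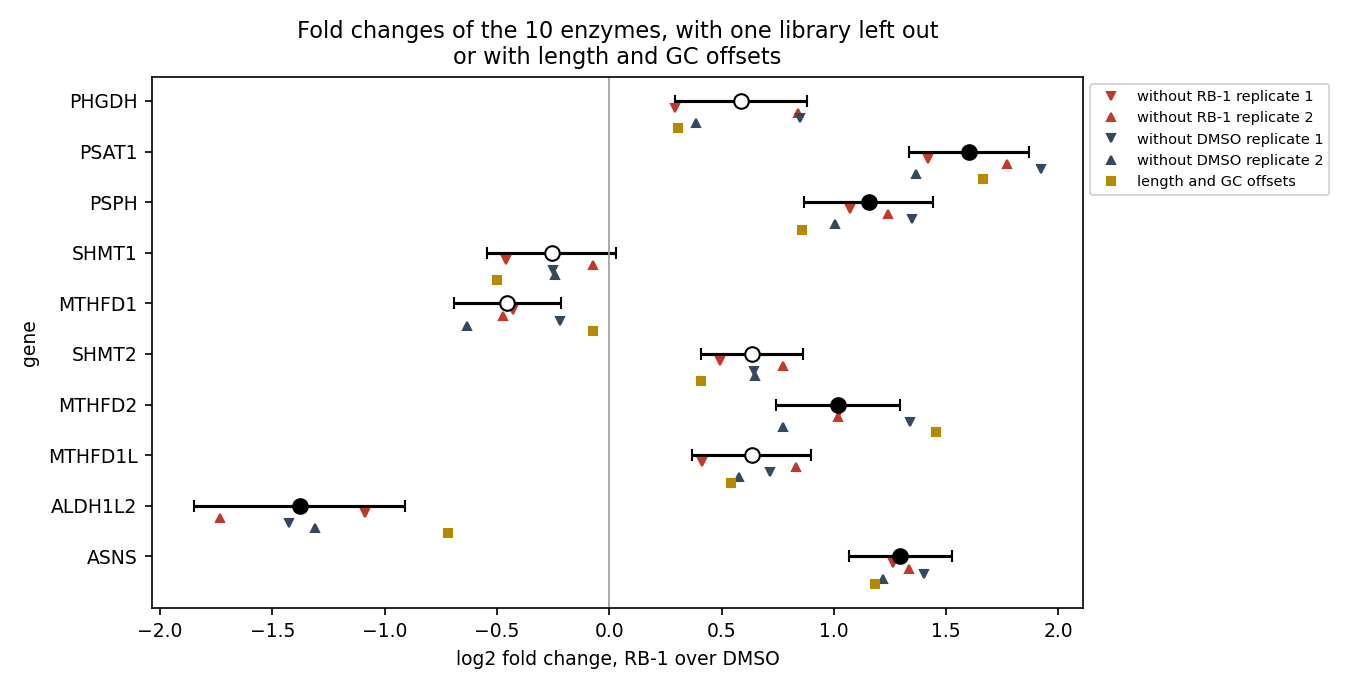
Log2 fold change of each enzyme, RB-1 over DMSO (black circles, filled where past the threshold; bars are ± 1 standard error), with the value when a library is left out (triangles) or with offsets for length and GC content (squares). PSAT1 and ASNS stay above 1.1 throughout, and ALDH1L2 moves from -1.38 to -0.72 with the offsets.

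Ratios of related enzymes, most of them between compartments, were also taken within each library, where the scaling between libraries cancels. No ratio was taken of mitochondrial ALDH1L2 to cytosolic ALDH1L1. Their log2 fold changes had opposite signs (-1.38 and 2.14, both at low levels). That of ALDH1L2 was -0.72, not past the threshold, with offsets for length and GC content. The count of SHMT2 was 16.5 and 17.8 times that of SHMT1 in RB-1 libraries, against 9.23 and 9.18 times in DMSO libraries. Both DMSO libraries gave almost the same ratio, and the ratio was 1.87-fold larger after RB-1. MTHFD2 stood at 0.460 and 0.448 of the MTHFD1 count in RB-1 libraries, against 0.171 and 0.154 in DMSO libraries. This ratio had a 2.80-fold difference with little spread within the groups. The MTHFD1L count was 0.434 and 0.315 of that of MTHFD1 in RB-1 libraries, against 0.162 and 0.196 in DMSO libraries. That difference of 1.06 on the log2 scale was 0.60 with offsets for length and GC content; MTHFD1 has 6908 exon bases and MTHFD1L 3824. MTHFD2 was 18.2 and 14.5 times its close relative MTHFD2L, another mitochondrial dehydrogenase, in RB-1 libraries, against 5.96 and 5.79 times in DMSO libraries. None of the 4 ratios overlapped between the groups. Of single tested genes, 35.3% lay above and 34.3% below without overlap, and the 4 ratios share MTHFD1 and MTHFD2, so this count carries little weight. The exact two-sided permutation p was 0.333 for each of the 4, which is the smallest that 4 libraries allow and cannot pass 0.05, before or after adjustment.

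**Figure D3:**
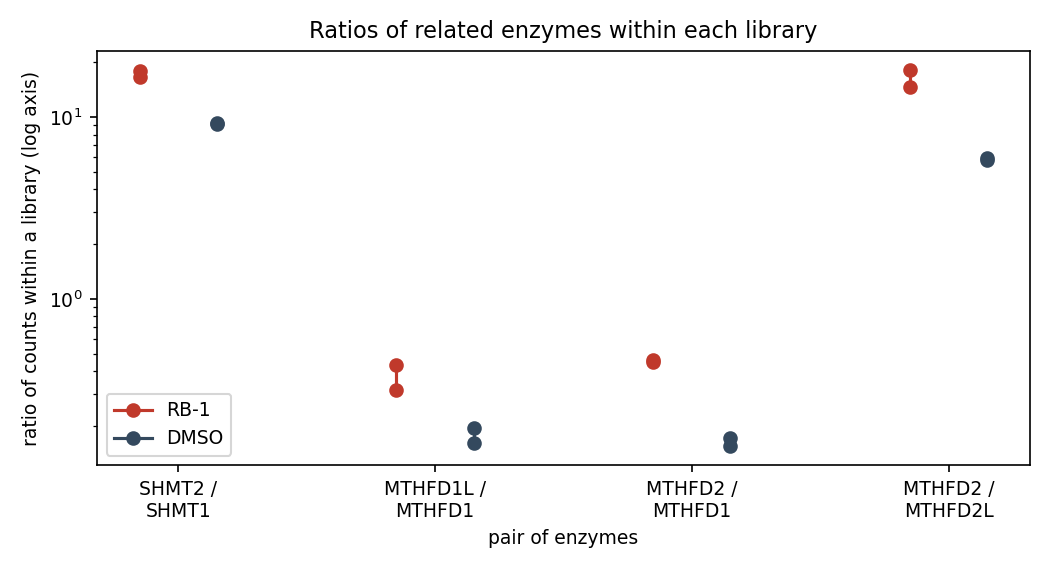
Ratio of the counts of related enzymes within each library (log axis), with RB-1 in red to the left of DMSO in dark blue; each point is 1 library. In all 4 pairs both RB-1 libraries lie above both DMSO libraries, by 1.87-fold to 2.80-fold on average. MTHFD1 and MTHFD2 each stand in more than 1 pair.

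Levels were compared between the genes per kilobase of annotated exon. In RB-1 libraries PSAT1 was first with a mean level of 319 CPM per kilobase, followed by ASNS at 151 and SHMT2 at 143, whose libraries overlapped. MTHFD1 (32.9) and PHGDH (31.5) overlapped with each other, and so did the neighbours MTHFD2 (23.2), MTHFD1L (22.3) and PSPH (19.9). SHMT1 followed at 8.98 and ALDH1L2 at 0.0811 CPM per kilobase. In DMSO libraries PSAT1 (105) and SHMT2 (92.0) overlapped, then came ASNS at 61.4 and MTHFD1 at 45.1 CPM per kilobase. PHGDH (21.0) was next, then MTHFD1L (14.3), MTHFD2 (11.5) and SHMT1 (10.7), each overlapping with its neighbour, then PSPH (8.93) and ALDH1L2 (0.212). Of the summed CPM of the 10 genes, PSAT1, SHMT2 and ASNS held 73.3% and 71.8% in RB-1 libraries, against 54.7% and 57.1% in DMSO libraries. The sum itself was 2247 and 1907 CPM in RB-1 libraries and 1317 and 1056 CPM in DMSO libraries.

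Fold changes in this series varied with exon length, over which the enzymes range widely; the part of length in any member's result was not tested beyond the offsets given here. Across the tested genes the Spearman correlation of the log2 fold change with exon length was -0.37, given as a description. Between the RB-1 libraries the ratio of replicate 1 to replicate 2 followed length too (-0.43), and between the DMSO libraries less so (0.10). Among the 1359 genes of 2091 to 2562 bases, which hold PSAT1, PSPH and ASNS, the median log2 fold change was 0.25, below the values of all 3. MTHFD2, with 4456 bases, was at 1.02 where genes of 4346 to 5157 bases had a median of -0.11. MTHFD1 (-0.45) and ALDH1L2 (-1.38) lie among genes of 6310 to 8189 bases with a median of -0.39. With offsets that remove the trend with length and GC content from each library, PSAT1 (1.67), ASNS (1.18), PSPH (0.86) and MTHFD2 (1.46) were all still past the threshold. The offsets brought PHGDH to 0.31, SHMT2 to 0.41, MTHFD1L to 0.54, SHMT1 to -0.50 and MTHFD1 to -0.07, none of which passed.

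**Figure D4:**
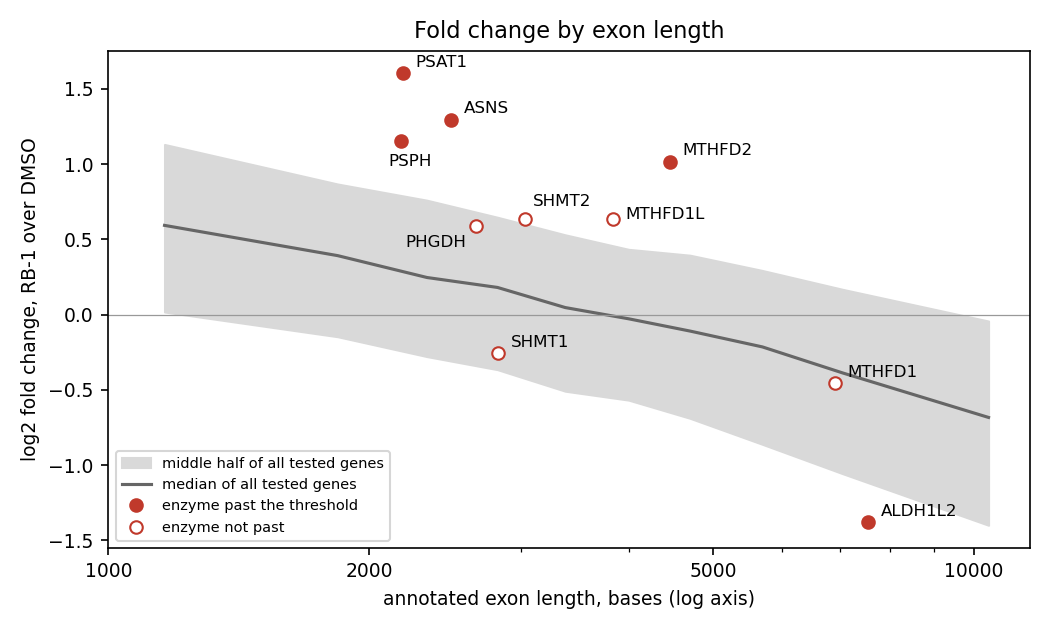
Log2 fold change (RB-1 over DMSO) against annotated exon length (log axis), with the enzymes as red points, filled where past the threshold; the grey line and band are the median and the interquartile range of all tested genes in 10 groups of length. The genes that rose lie above the band, and MTHFD1 lies near the median of genes of its length.

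ATF4 (ENSG00000128272), the activator named above, had 797 and 796 CPM in RB-1 libraries, against 412 and 373 CPM in DMSO libraries. It was 2.03-fold higher (1.02 ± 0.22, edgeR adjusted p = 0.00768), and did not pass without DMSO replicate 2 (0.97). With offsets for length and GC content ATF4 was at 0.71 (edgeR adjusted p = 0.0234). ATF4 protein was not measured. Among 14 factors of the integrated stress response 9 rose (64.3%, against 12.8% of all tested genes) and 0 fell by edgeR, with a median log2 fold change of 0.99. In this list 1 was lower at an unadjusted p under 0.05, and 1 by DESeq2 and 0 by limma-voom after adjustment. Like the other lists, it was chosen with earlier results of these data known, so its share is not an independent comparison. Besides ATF4 the smallest p belonged to DDIT4, an inhibitor of mTORC1 (2.60), CEBPB, a C/EBP factor (1.48), and DDIT3, which encodes CHOP (1.99). The rises in this list numbered 5 without RB-1 replicate 1, DMSO replicate 1 or DMSO replicate 2. DDIT4 shares 48.5% and CEBPB 11.8% of exon bases with antisense genes, and no source at hand says if counting used strand.

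Amino acid carriers and the tRNA synthetases, other groups in which ATF4 targets are known, gave less even pictures. Of 10 amino acid transporters 3 rose (30%, against the same 12.8%) and 0 fell by edgeR, with a median of 0.42, and 1 was lower at an unadjusted p under 0.05, by DESeq2 and by limma-voom. The risers were SLC3A2 (1.14), the shared heavy chain of several exchangers, SLC7A5 (0.78), the leucine carrier it pairs with, and SLC1A5 (0.78), a glutamine carrier that shares 23.4% of exon bases with an antisense gene. These rises numbered 5 with the length and GC offsets, 1 without RB-1 replicate 1, 0 without DMSO replicate 1 and 1 without DMSO replicate 2. Of 20 cytosolic aminoacyl-tRNA synthetases 4 rose and 7 fell, which is 20% and 35% against 12.8% and 16.1% of all tested genes, with a median of -0.18. EPRS1 (-1.81), RARS1 (-1.78), LARS1 (-1.44) and IARS1 (-1.33), which charge tRNAs with glutamate and proline, arginine, leucine and isoleucine, had the smallest p. SARS1, which loads serine, rose (0.87 ± 0.22, edgeR adjusted p = 0.0163), and NARS1, which loads asparagine, fell (-0.99 ± 0.27, edgeR adjusted p = 0.0216); this pair was picked for its amino acids after the values were seen. The 4 rises became 2 with no count filter, 2 with the offsets, and 0, 1 and 0 without RB-1 replicate 1, DMSO replicate 1 and DMSO replicate 2, while the 7 falls became 4 with library totals alone, without RB-1 replicate 1 or without DMSO replicate 1.

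Of the enzymes around the 10 genes about as large a share rose as of all genes. In 5 lists of neighbouring reactions 58 of 64 genes were tested, of which 8 rose and 3 fell, with a median log2 fold change of 0.23. That is 13.8% higher and 5.17% lower, against 12.8% and 16.1% of all tested genes, and the same shares stand behind the counts of each list. In the list of other folate enzymes and carriers 3 of 13 tested genes rose (23.1%, against 12.8% of all tested genes) and 0 fell by edgeR (median 0.43; 16.1% of all tested genes fell), also 0 at an unadjusted p under 0.05, by DESeq2 and by limma-voom, and 1 fell with the length and GC offsets. ALDH1L1, the cytosolic form of the formyl-folate dehydrogenase, had 2.36 and 2.59 CPM in RB-1 libraries, against 0.717 and 0.397 CPM in DMSO libraries (2.14 ± 0.46, edgeR adjusted p = 0.00818). It thus moved the opposite way to mitochondrial ALDH1L2, both at low levels. With offsets for length and GC content ALDH1L2 was at -0.72 and did not pass (edgeR adjusted p = 0.211). ALDH1L1 has 3718 exon bases and ALDH1L2 7547, and the part of length in this contrast was not tested. GGH, which trims the glutamate tail of folates, was higher by 1.56 on the log2 scale. The folate rises numbered 1 without RB-1 replicate 1 and 0 without DMSO replicate 2. MTHFD2L had 5.67 and 7.10 CPM in RB-1 libraries, against 10.3 and 7.05 CPM in DMSO libraries, and did not pass (-0.44 ± 0.34, edgeR adjusted p = 0.350).

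Among 11 tested genes of serine and glycine handling, SDSL, related to serine dehydratase, rose (2.11) and DLD, a subunit shared by the glycine cleavage system and pyruvate dehydrogenase, fell (-1.31), with a list median of 0.28. The glycine decarboxylase gene GLDC was too low to be tested. The list had 2 risers under upper-quartile factors, DESeq2, the offsets and without RB-1 replicate 2, and the fall of DLD was lost without DMSO replicate 1. In the methionine cycle and transsulfuration 1 of 8 tested genes rose, CTH (0.96), which makes cysteine from cystathionine, with a list median of 0.15; 0 fell by edgeR, 1 at an unadjusted p under 0.05, 1 by DESeq2 and 0 by limma-voom. That call was lost whichever of the 4 libraries was left out, and CBS, the step before it, was too low to be tested. Of 12 tested genes of purine synthesis, which consumes formyl-folate, 0 passed in either direction by edgeR (median -0.06), also 0 at an unadjusted p under 0.05, by DESeq2 and by limma-voom.

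In the list of aspartate, glutamine and proline handling 3 of 14 tested genes rose and 2 fell, with a median of 0.48. ASS1 (0.90) and ASL (1.27), which pass aspartate into arginine, rose, as did PYCR1 (1.04), the last enzyme of proline synthesis. ASNSD1, a gene with an asparagine synthetase domain, had 12.3 and 13.8 CPM in RB-1 libraries, against 46.3 and 45.8 CPM in DMSO libraries (-1.82 ± 0.28, edgeR adjusted p = 0.00181). It moved the opposite way to ASNS. The other fall, ASRGL1, which breaks asparagine down, is named outside the rule for named genes (-1.10, edgeR adjusted p = 0.0492). The 3 rises were lost without RB-1 replicate 1, DMSO replicate 1 or DMSO replicate 2, and the 2 falls became 1 whichever of the 4 libraries was left out and under 6 other alternatives. ASL shares 24.3% and PYCR1 19.6% of exon bases with another gene.

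**Figure D5:**
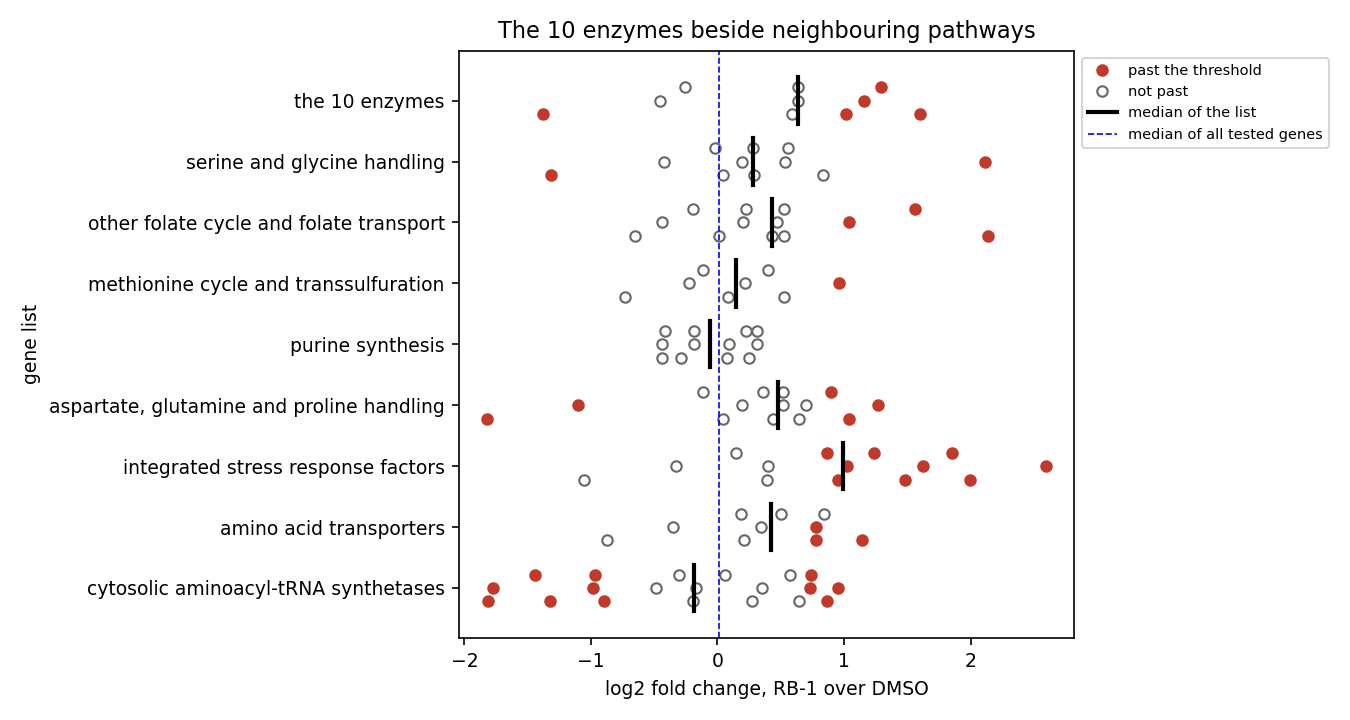
Log2 fold change (RB-1 over DMSO) of each tested gene in the 10 enzymes and 8 neighbouring lists; red points passed the threshold, open points did not, black bars are list medians and the dashed line is the median of all tested genes (0.01). The enzymes have a median of 0.63 and the stress response factors 0.99, while purine synthesis lies around 0 with none past the threshold.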

How the data were processed

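Per the labels' protocols, libraries were made from total RNA with an mRNA kit. The authors deposited raw gene counts, 1 column per library. No aligner, counter or strand setting is named in the labels. The submitters' processing notes list mouse builds (GRCm38, mm10) while all IDs are human, so no coordinates were taken for the counts. Gene names matched 20148 of 20263 IDs. Exon lengths and overlaps came from GENCODE release 29, promoters from RefSeq.

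Genes were kept by filterByExpr, scaled by TMM and fitted with edgeR 4.0.16 in R 4.3.3 (estimateDisp, glmQLFit with robust estimation and bias-adjusted deviances, glmQLFTest). The standard error is the log2 fold change divided by the square root of F. Replicates differed by far more than sampling noise (chi-square per degree of freedom 257 for DMSO, 128 for RB-1). On simulated data for 13612 genes, 2.0% of genes changed 1.5-fold, 22.8% changed 2-fold and 83.6% changed 4-fold were recovered. Of the simulated calls, 4.95% were false. The simulation changed far fewer genes than were called here. It set the spread of a gene by its mean level alone and held no trend with length. Its rates need not hold for the real comparison, and a gene that did not pass may have changed. The members and lists were chosen with earlier results of these data known. Named are the 10 enzymes, ATF4, MTHFD2L and, per list, up to 4 called genes with the smallest p; 2 genes of the lists are not reported here by name. Alternatives were other scaling (RLE, upper quartile, or only library totals), other filters, DESeq2 1.42.0, limma-voom (limma 3.58.1), a replicate block, offsets from a smooth fit on length and GC content (mgcv), each library left out, stricter call rules and, added after seeing the data, edgeR's legacy fit.

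Reads of pseudogene copies may be shared, with named copies for MTHFD2 (7), PSAT1 (4), ASNS (4), PSPH (1), SHMT1 (1) and MTHFD1 (1); these were not analysed here.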

Additional observations from a re-analysis of the deposited data

How the results depend on the processing

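The number of enzymes called higher was 4, with 5 under upper-quartile factors and library totals alone, where SHMT2 joined, and 2 at an adjusted p under 0.01; it ranged from 2 to 6 with a library left out. It was 2 without DMSO replicate 2. PSAT1 and ASNS kept their calls throughout. The 1 lower call, ALDH1L2, became 0 with library totals alone, with upper-quartile factors, without a count filter, with the stricter filter (which removes the gene), DESeq2, limma-voom, the replicate block, the length and GC offsets, edgeR's legacy fit and an adjusted p under 0.01, and 0 to 0 with a library left out; the cause was not tested. No log2 fold change of the enzymes reversed. Over all genes 1737 were higher and 2189 lower. The balance was 2171 and 1830 with upper-quartile factors, 2059 and 1400 with library totals alone (median shifts of 0.11 and 0.19 on the log2 scale) and 513 and 1067 at an adjusted p under 0.01. Leaving out a library gave 522 to 1955 higher and 1065 to 2443 lower. With the replicate number as a block 4 enzymes were higher and 0 lower, and 1741 and 2314 genes; nothing in the labels pairs the numbers, and the replicate differences of the groups correlated at -0.10 across genes. Depth limits ALDH1L2, with 18 to 54 counts.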
